A study of Mus musculus with 12 samples.

Results

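Lysosomal gene expression was examined in cultures of mouse lung endothelial cells (MLECs) from mice in which the genes of the transcription factors Sp1 and Sp3 were targeted for deletion in the endothelium. The 45 genes described here code for lysosomal enzymes, lysosomal membrane proteins, subunits of the proton pump and the TFEB family of transcription factors. They were chosen by name from a list of lysosomal genes, with earlier results of these data known. Each of the 45 had a row in the deposited table of 28689 genes. All 45 were also among the 12467 genes with at least 1 FPKM (fragments scaled by gene length and library size) in at least 6 of the 12 libraries, which were the genes tested.

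The experiment compared 6 libraries of CTR mice with 6 libraries of dKO mice. Both groups were adult male mice that carried floxed alleles of both genes (Sp1 fl/fl Sp3 fl/fl) and received tamoxifen, but only the dKO mice carried VE-CAD-CreERT2, a tamoxifen-inducible Cre recombinase. The CTR mice were Cre-negative littermates, which the labels list as WT. Cre was driven by the VE-cadherin promoter, so that other cell types in the cultures would not be targeted. Cells were selected with beads against CD31 and then against ICAM2 and grown as low-passage cultures. How many mice contributed to a library is not given, so p-values measure the spread between these libraries, which may be technical.

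Sp1 was 21.2 ± 1.77 FPKM in CTR and 10.6 ± 1.53 in dKO (mean ± SD, n = 6), with no overlap, and Sp3 was 27.7 ± 2.31 and 25.0 ± 1.64, a log2 fold change of −0.14 that missed the threshold (limma adjusted p = 0.0902). The dKO columns are named after tamoxifen, so the match of columns to groups rests on the labels and on Sp1. Libraries held 15523054 to 17938286 fragments, and between 124 and 155262 fragments lay behind a value of the lysosomal genes. Of all genes tested, 53.1% had an adjusted p under 0.05. The share that was higher in dKO was 20.4% and the share that was lower 32.6%. The higher genes made up 38.5% of the called genes, or 51.6% after median-of-ratios scaling. All 10 endothelial markers examined were expressed and 9 of them were higher in dKO. Their summed level, 169 to 251 FPKM in CTR and 308 to 425 in dKO, lay below that of 10 fibroblast markers, which was 2161 to 2757 and 858 to 1692. The fibroblast sum came mostly from Col1a1, Col1a2 and Col3a1, with CTR means of 1173, 598 and 544 FPKM. Sums over different lists of genes do not measure the shares of cell types.

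Lysosomes are acidic organelles in which hydrolases break down proteins, glycans, sulfated sugars and lipids that arrive by endocytosis, phagocytosis or autophagy. A proton pump, the V-ATPase, acidifies the lumen, and glycosylated membrane proteins line the inside of the membrane. Many of the genes share a promoter element, an E-box with fixed flanking bases, to which TFEB, TFE3 and MITF bind. These factors are held in the cytosol when the mTOR kinase at the lysosome phosphorylates them, so their activity depends on localization as well as on mRNA. Sp1 and Sp3 bind GC boxes, which are common in promoters of widely expressed genes.

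The E-box stretches of the promoters are shown first because they hold the element that the TFEB family binds. Promoter sequences were taken from RefSeq (GRCm38.p6) and placed in GRCm39 by exact match, and 37 of the 45 genes had an entry. The palindrome TCACGTGA, read identically on both strands, was found in the 300-base promoters of 7 of these 37 genes. Each line gives 30 bases, 5′ to 3′ in the direction of the gene, with the palindrome in capitals.
Ctsd, chr7:141941645-141941674, minus strand: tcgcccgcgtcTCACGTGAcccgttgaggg
Ctsa, chr2:164675669-164675698, plus strand: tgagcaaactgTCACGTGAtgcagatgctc
Ctsa, chr2:164675686-164675715, plus strand: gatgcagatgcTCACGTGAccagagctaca
Gla, chrX:133501964-133501993, minus strand: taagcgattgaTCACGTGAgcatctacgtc
Gla, chrX:133501931-133501960, minus strand: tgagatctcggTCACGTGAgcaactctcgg
Atp6v1a, chr16:43959736-43959765, minus strand: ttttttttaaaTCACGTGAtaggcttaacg
Atp6v0d1, chr8:106292682-106292711, minus strand: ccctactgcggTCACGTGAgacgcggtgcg
Cln3, chr7:126182512-126182541, minus strand: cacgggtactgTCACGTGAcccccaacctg
Mcoln1, chr8:3550462-3550491, plus strand: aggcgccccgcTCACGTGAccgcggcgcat

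In Ctsd the palindrome began 99 bases upstream of the RefSeq start, in Atp6v0d1 4 bases and in Mcoln1 46 bases upstream. The first 5 genes of this list, Ctsd, Ctsa, Gla, Atp6v1a and Atp6v0d1, were higher in dKO, whereas Cln3 and Mcoln1 did not pass the test. The palindrome was held by 0.974% of the 32851 promoters in the table and by 2.35% of the 9095 tested genes with an entry, against 18.9% of the lysosomal genes. Its core CACGTG, which includes every copy of the palindrome, was found in 14 lysosomal genes (37.8%), against 7.15% of all promoters and 11.9% of the tested genes. Among the genes with an entry, 5 of the 26 that were higher in dKO and 2 of the other 11 held the palindrome. The core was held by 10 of these 26 and by 4 of the other 11.

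The GC box, the element of Sp1 and Sp3, was counted in the same way. GGGCGG, searched on both strands, was found in 24 of the 37 genes (64.9%), against 35.7% of all promoters and 70.0% of the tested genes. It was present in 15 of the 26 genes that were higher in dKO and in 9 of the other 11. The 250 bases upstream of the RefSeq start are shown for Ctsd, which had the largest rise, and Scpep1, the module's only gene called lower. GGGCGG, its complement CCGCCC and CACGTG are in capitals. Both RefSeq starts lie inside the GENCODE span of the gene.
Ctsd, chr7:141941565-141941814, minus strand: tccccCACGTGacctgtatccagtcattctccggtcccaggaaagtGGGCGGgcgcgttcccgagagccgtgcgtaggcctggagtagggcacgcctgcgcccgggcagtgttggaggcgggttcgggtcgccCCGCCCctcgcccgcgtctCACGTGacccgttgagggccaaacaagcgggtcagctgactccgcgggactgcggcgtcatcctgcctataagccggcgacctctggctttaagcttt
Scpep1, chr11:88846269-88846518, minus strand: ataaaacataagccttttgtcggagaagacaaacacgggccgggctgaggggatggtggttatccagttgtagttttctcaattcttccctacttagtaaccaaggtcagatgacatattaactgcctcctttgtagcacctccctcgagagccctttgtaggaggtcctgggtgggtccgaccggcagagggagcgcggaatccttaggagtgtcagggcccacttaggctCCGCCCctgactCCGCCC

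The Ctsd promoter held 2 GC boxes and 2 E-box cores, and the Scpep1 promoter held 2 GC boxes and no E-box core. A match is a description of the letters in this window and does not show that a factor bound there.

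Across the module, 34 of the 45 genes were higher in dKO than in CTR and 1, Scpep1, was lower at an adjusted p under 0.05, against 20.4% and 32.6% of all genes tested. The remaining 10 did not pass the test. The median log2 fold change of the 45 genes was 0.52, whereas that of all genes tested was −0.10. With a change of more than 1.5-fold as a further condition, 21 genes were higher and 1 was lower, against 8.92% and 8.98% of all genes. A log2 fold change over 1 was reached by 9 genes, against 3.83% of all genes. None of the 45 passed the log2 threshold of 1.5 named in the study's methods, although 2 of the 45 did so after median-of-ratios scaling. On the higher side, 1.43% of all genes passed it. By its methods, the study applied this threshold to results of DESeq2, whereas here it was applied to limma fold changes of log2(FPKM + 1). The legend of the study's heatmap names a change of more than 1.5-fold instead. In 24 genes every dKO library lay above every CTR library, against 11.3% of all genes, and in 1 gene every dKO library lay below, against 16.1%. Counts by role and by marker list below are to be read beside these shares.

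**Figure D1:**
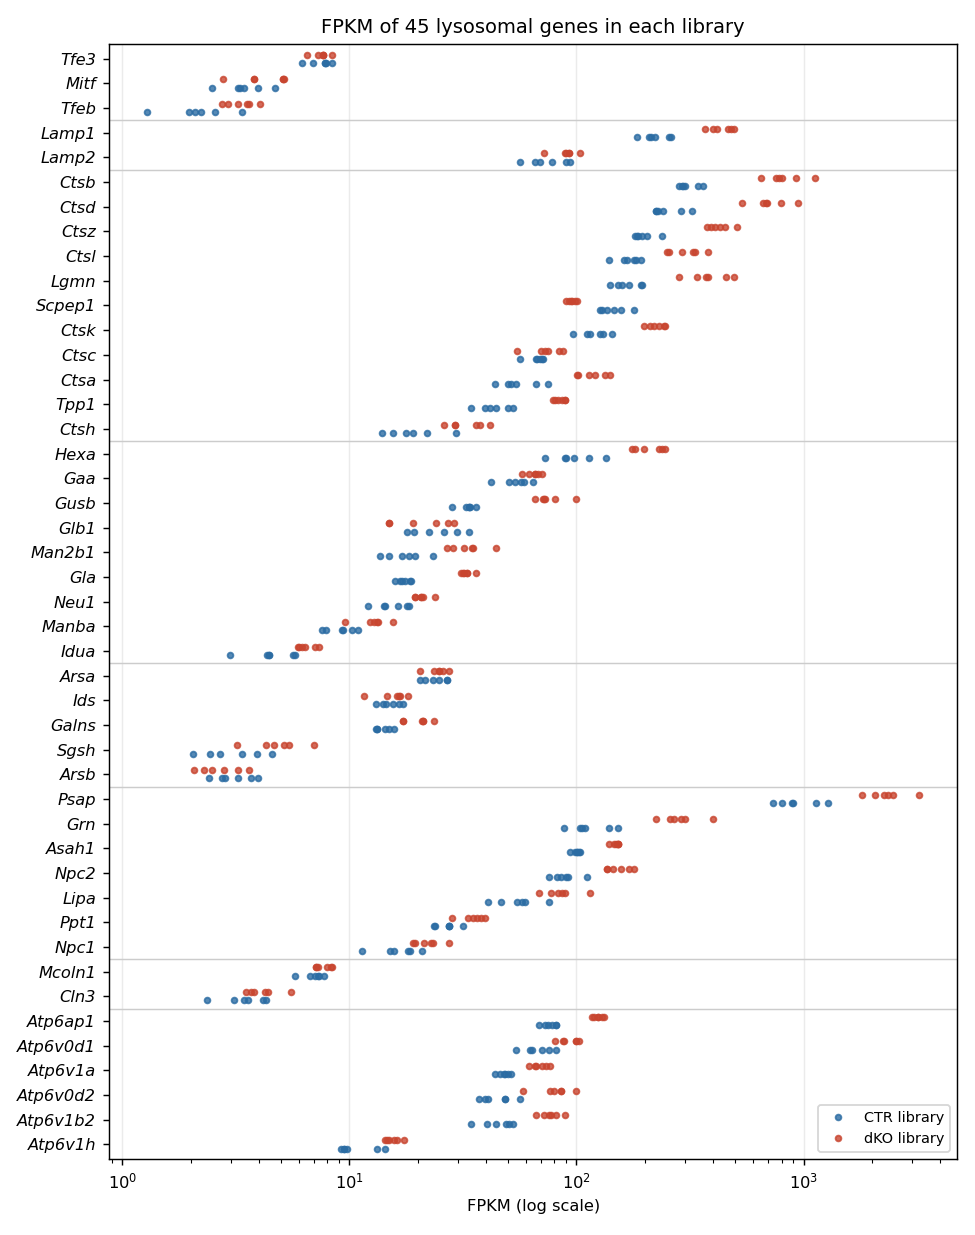
FPKM of the 45 lysosomal genes in each library on a log scale, with 1 row per gene, CTR libraries in blue and dKO libraries in red, grouped by role. Most red points lie to the right of the blue ones, the groups of Tfe3 overlap fully, and the order is turned for Scpep1, where all dKO libraries lie between 90.4 and 101 FPKM, below the CTR libraries.

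The summed level of the 45 genes was 3239 to 4652 FPKM in the CTR libraries (median 3705) and 6631 to 9913 in the dKO libraries (median 7812). These genes therefore took 1.08% to 1.58% of the summed FPKM of a CTR library and 2.22% to 3.29% of that of a dKO library. The groups did not overlap. Within each group, the same libraries often held the highest or the lowest values. CTR replicate 4 held the highest CTR value of 28 of the 45 genes and CTR replicate 1 the lowest of 27. Likewise, dKO replicate 3 held the highest dKO value of 28 genes and dKO replicate 5 the lowest of 22.

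Markers of macrophages, cells rich in lysosomes, were mostly higher in dKO. So were endothelial markers (9 of 10, median log2 fold change 0.88) and tested mesothelial markers (4 of 5, median 1.29). Most fibroblast and lung epithelial markers were not, and of all genes tested 20.4% were higher and 32.6% lower. Of 10 macrophage markers, 9 were higher in dKO and 1, Marco, was lower, with a median log2 fold change of 1.69, and none was at 0 in all libraries. Their summed level was 790 to 1342 FPKM in CTR and 2061 to 4494 in dKO. This sum came mostly from Lyz2, with means of 746 FPKM in CTR and 1868 in dKO. The highest sum in dKO was that of replicate 3, which held the highest dKO value of 9 of the 10 markers. In CTR the highest sum was that of replicate 4, but it held the highest CTR value of only 3 markers, against 5 for replicate 5. The lowest dKO sum of both lists was that of replicate 5, at 2061 FPKM for the macrophage markers and 6631 FPKM for the lysosomal genes. The lowest CTR sum of the macrophage markers was that of replicate 6 (790 FPKM), whereas that of the lysosomal genes was that of replicate 1 (3239 FPKM). The part of the macrophage markers in the changes of the lysosomal genes was not tested. Without dKO replicate 3, 34 lysosomal genes were higher and 1 lower, and without CTR replicate 4 the counts were 35 and 1. In bulk RNA, more cells of a type and more RNA per cell cannot be told apart.

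**Figure D2:**
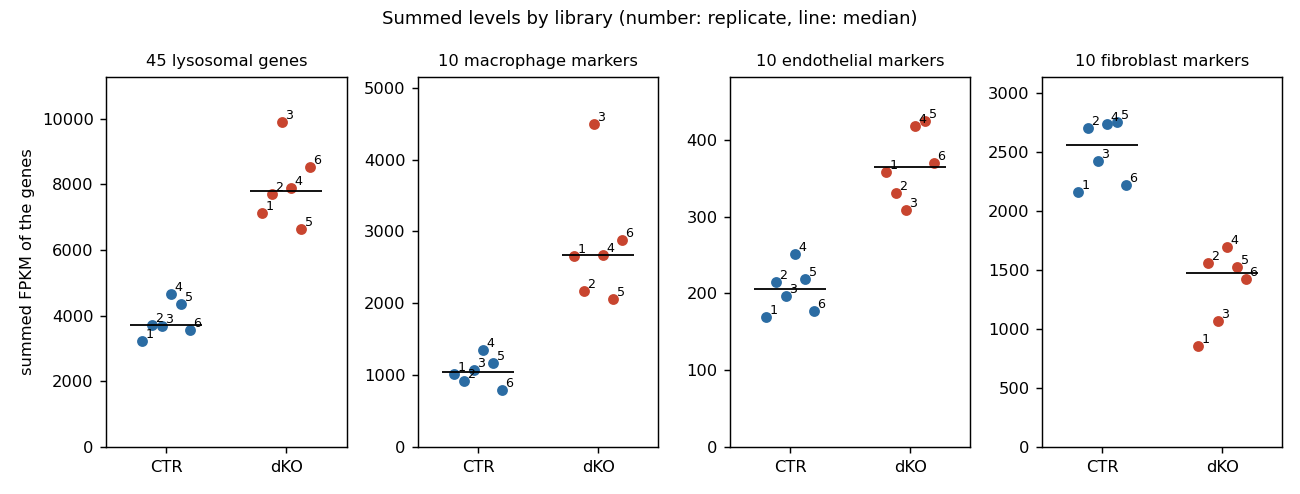
Summed FPKM of the 45 lysosomal genes and of the macrophage, endothelial and fibroblast markers in each library, with the replicate number beside each point and a line at the group median. The sums of lysosomal genes and of macrophage and endothelial markers are higher in all dKO libraries than in all CTR libraries, and the sum of fibroblast markers is lower. dKO replicate 3 has the highest sum of lysosomal genes (9913) and of macrophage markers (4494), and the lowest dKO sum of endothelial markers (308).

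Of the other cell types examined, 4 of 5 tested mesothelial markers were higher in dKO, with a summed level of 22.1 to 31.7 FPKM in CTR and 58.6 to 136 in dKO. Other leukocyte markers were low, at 1.76 to 5.17 FPKM summed over 9 genes in CTR and 6.64 to 14.1 in dKO. Of 9 tested fibroblast markers, 4 were lower and 1 was higher. Lung epithelial markers overlapped, at 82.1 to 483 and 144 to 345 FPKM, and 1 of the 5 tested was higher. The part of these markers in the changes of the lysosomal genes was not tested.

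Of the TFEB-family factors Tfeb, Tfe3 and Mitf, only Tfeb passed the test. Tfeb (chr17:48047837-48103348, GRCm39, as all gene positions here), which codes for the factor that gives the family its name, ranged from 1.29 to 3.36 FPKM in CTR (median 2.15) and from 2.74 to 4.05 in dKO (median 3.38). The groups overlapped, with 3 of 6 dKO libraries above all CTR libraries. Its level was 2.25 ± 0.687 in CTR and 3.35 ± 0.482 in dKO, a log2 fold change of 0.44 ± 0.13 (SE; adjusted p = 0.0138; exact two-sided permutation p = 0.0108). On this scale, log2(FPKM + 1), the changes of genes with a few FPKM are understated. Over the alternatives that kept all libraries, the log2 fold change of Tfeb was 0.44 to 0.62.

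Tfe3 (chrX:7628761-7641444), its relative with the highest level here, ranged from 6.21 to 8.39 FPKM in CTR (median 7.81) and from 6.48 to 8.38 in dKO (median 7.62). The groups overlapped over nearly their whole range, and the log2 fold change was 0.00 with a 95% interval of −0.16 to 0.17 (adjusted p = 0.982). Mitf (chr6:97783950-97998323), best known as the regulator of melanocytes and also active in osteoclasts, ranged from 2.49 to 4.70 FPKM in CTR (median 3.35) and from 2.77 to 5.14 in dKO (median 4.46). Its log2 fold change of 0.22 ± 0.14 had a 95% interval of −0.08 to 0.52 (adjusted p = 0.2), so a rise of moderate size could not be told from none. Per length, the order of the 3 factors was Tfe3, Mitf and Tfeb in both groups by the mean, and the ranges of Mitf and Tfeb overlapped in each.

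**Figure D3:**
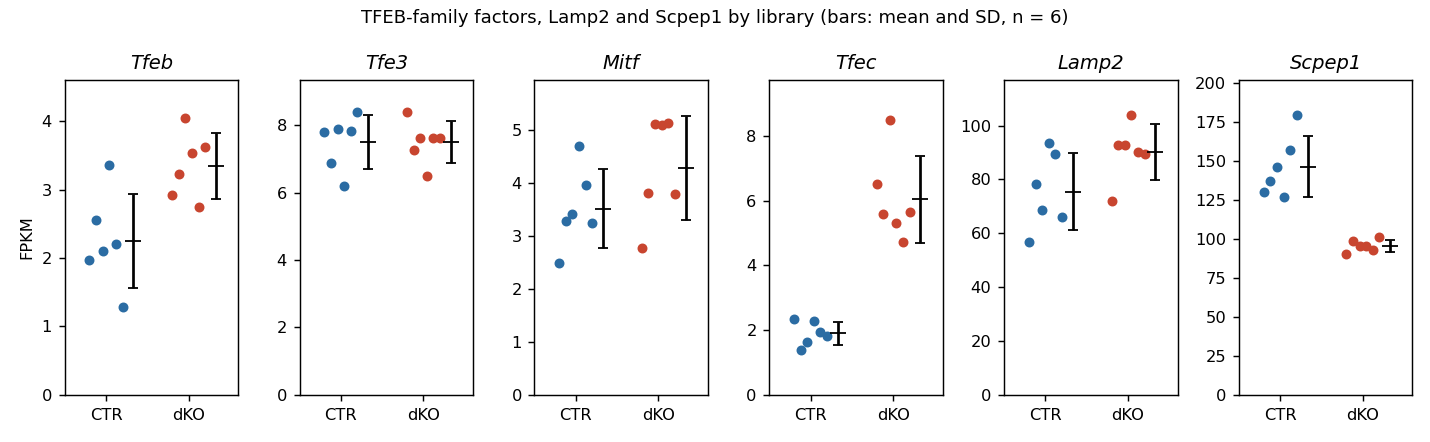
FPKM of Tfeb, Tfe3, Mitf, Tfec, Lamp2 and Scpep1 in each library, with 1 panel per gene and an axis from 0, and with bars for the mean and SD of 6 libraries. The groups overlap in Tfeb, Tfe3, Mitf and Lamp2, all dKO libraries are higher in Tfec, and all are lower in Scpep1.

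The lysosome-associated membrane proteins Lamp1 and Lamp2 make up much of the protein of the lysosomal membrane, and they differed in these libraries. Lamp1 (chr8:13209121-13227360) ranged from 185 to 260 FPKM in CTR (median 218) and from 367 to 493 in dKO (median 441). The groups did not overlap, and its level rose from 224 ± 28.7 to 437 ± 49.9, a log2 fold change of 0.96 ± 0.10 (adjusted p = 9.59e-06). Lamp2 (chrX:37488520-37545340), of which an isoform is the receptor of chaperone-mediated autophagy, ranged from 56.6 to 93.6 FPKM in CTR (median 73.6) and from 72 to 104 in dKO (median 91.4). Here only 1 dKO library lay above all CTR libraries, and the log2 fold change of 0.27 ± 0.12 missed the threshold (adjusted p = 0.0835; 95% interval 0.00 to 0.53; exact permutation p = 0.0736). Lamp2 passed the threshold after median-of-ratios scaling, with the replicate number as a block, and without CTR replicate 4 or without dKO replicate 1.

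The peptidases held the largest rises of the module. Of 11 genes, 9 were higher in dKO and 1 was lower, against 20.4% and 32.6% of all genes tested. The other 1 did not pass the test, and the median log2 fold change of the 11 was 0.95. Ctsd (chr7:141929646-141941775), the main aspartic protease of the lysosome and one of the genes with the palindrome shown above, ranged from 223 to 324 FPKM in CTR (median 235) and from 534 to 949 in dKO (median 687). All dKO libraries lay above all CTR libraries. Its mean rose from 255 ± 41.7 to 720 ± 140, or 2.83-fold, with a log2 fold change of 1.49 ± 0.14 (adjusted p = 3.79e-06). Ctsb (chr14:63358384-63383372), a cysteine protease, ranged from 283 to 360 FPKM in CTR (median 297) and from 649 to 1118 in dKO (median 795). Its groups were also apart, with a log2 fold change of 1.41 ± 0.12 (adjusted p = 2.24e-06). Leaving out any library gave log2 fold changes of 1.40 to 1.57 for Ctsd and 1.33 to 1.48 for Ctsb.

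Lgmn (chr12:102359122-102414682), the asparaginyl endopeptidase that activates several cathepsins, ranged from 141 to 194 FPKM in CTR (median 165) and from 284 to 493 in dKO (median 375). It did not overlap between groups and rose by a log2 fold change of 1.18 ± 0.13 (adjusted p = 1.38e-05). Its transcripts share a near-identical stretch with Fstl1, at 95.6% identity, so some reads could have been assigned to either gene. Ctsz (chr2:174267304-174280832), a carboxypeptidase, ranged from 181 to 237 FPKM in CTR (median 191) and from 376 to 510 in dKO (median 418). Again no libraries overlapped, and the log2 fold change was 1.10 ± 0.089 (adjusted p = 1.64e-06).

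Further peptidases rose by smaller steps. Ctsa, which shields neuraminidase and beta-galactosidase in a complex, rose by 1.06 on the log2 scale, from 56.9 ± 11.7 to 119 ± 16.2 FPKM. Tpp1, a tripeptidyl peptidase, rose by 0.95, Ctsk, a collagen-degrading protease, by 0.90, Ctsl by 0.83 and the aminopeptidase Ctsh by 0.76. Of these, Ctsh alone overlapped between groups, with 3 of 6 dKO libraries above all CTR libraries. Ctsc, a dipeptidyl peptidase that activates granule proteases of leukocytes, was 66.7 ± 5.49 FPKM in CTR and 74.0 ± 11.6 in dKO, a difference of 0.14 with a 95% interval of −0.09 to 0.36 (adjusted p = 0.286).

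Scpep1 (chr11:88814842-88846291), a serine carboxypeptidase, went the other way. It ranged from 127 to 179 FPKM in CTR (median 141) and from 90.4 to 101 in dKO (median 95.3). Every dKO library lay below every CTR library. Its level was 146 ± 19.5 in CTR and 95.5 ± 3.72 in dKO, and it fell by 0.60 ± 0.081 on the log2 scale (adjusted p = 6.81e-05; exact permutation p = 0.00216, the smallest this test can give with 6 against 6 libraries). It stayed lower in every alternative, with log2 fold changes of −0.71 to −0.51 when all libraries were kept.

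The glycosidases, which remove sugars from glycans and glycolipids, were higher in 8 of 9 cases, against 20.4% of all genes tested. Their median log2 fold change was 0.44. Gusb (chr5:130017852-130031903), the beta-glucuronidase, ranged from 28.4 to 36.0 FPKM in CTR (median 33.7) and from 65.9 to 99.4 in dKO (median 72.4). The groups were apart, and Gusb rose by a log2 fold change of 1.18 ± 0.094 (adjusted p = 1.47e-06). Hexa (chr9:59446818-59474021), the alpha subunit of beta-hexosaminidase A, ranged from 72.7 to 135 FPKM in CTR (median 93.5) and from 175 to 246 in dKO (median 215). It likewise showed no overlap, with a log2 fold change of 1.10 ± 0.14 (adjusted p = 4.25e-05).

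Gla, the alpha-galactosidase that is deficient in Fabry disease, had the smallest adjusted p of the module (3.76e-07). It was 17.4 ± 1.02 FPKM in CTR and 32.8 ± 1.79 in dKO, a log2 fold change of 0.88 ± 0.057. Man2b1, the lysosomal alpha-mannosidase, rose by 0.88, and the rises of Idua (0.44), Manba (0.43), Neu1 (0.41) and Gaa (0.26) were smaller. Gaa, the acid alpha-glucosidase that degrades glycogen, was the least stable of the called genes, at 54.4 ± 7.63 and 64.8 ± 4.53 FPKM (adjusted p = 0.0319), and lost its call in 9 of the 22 alternatives. Glb1, the beta-galactosidase, was 24.9 ± 6.10 FPKM in CTR and 21.5 ± 6.09 in dKO, with a 95% interval of −0.63 to 0.20 for the log2 fold change (adjusted p = 0.372).

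The sulfatases, which act on sulfated glycosaminoglycans and sulfatides, had a median log2 fold change of 0.04. Of 5, Galns and Sgsh were higher and 3 did not pass the test, where 20.4% of all genes tested were higher. Galns rose from 14.1 ± 1.11 to 20.2 ± 2.47 FPKM, a log2 fold change of 0.48 ± 0.083 (adjusted p = 0.000379), and Sgsh from 3.17 ± 0.951 to 4.96 ± 1.27, a log2 fold change of 0.52 ± 0.17 (adjusted p = 0.0195). Only Galns was without overlap between groups. Ids, Arsa and Arsb had log2 fold changes of 0.04, 0.03 and −0.15, with 95% intervals of −0.18 to 0.25, −0.16 to 0.21 and −0.40 to 0.11.

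All 7 genes for lipid hydrolysis, lipid transport and their cofactors were higher in dKO, against 20.4% of all genes tested. Their median log2 fold change was 0.64. Psap (chr10:60113431-60138380), the precursor of the saposins that present lipids to hydrolases, was the most abundant gene of the module and lay at the 99.8th percentile of all tested genes in CTR. It ranged from 736 to 1285 FPKM in CTR (median 896) and from 1810 to 3221 in dKO (median 2306). No libraries overlapped, and the log2 fold change was 1.30 ± 0.16 (adjusted p = 2.71e-05). Grn (chr11:102321141-102327874), which codes for progranulin, a partner of prosaposin in transport to the lysosome, ranged from 88.5 to 152 FPKM in CTR (median 107) and from 224 to 398 in dKO (median 279). It was also separate between groups, with a log2 fold change of 1.31 ± 0.15 (adjusted p = 1.9e-05).

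Npc2 and Npc1 act in turn to move cholesterol out of the lysosome. Npc2, the soluble carrier, rose from 89.4 ± 12.3 to 154 ± 18.0 FPKM, a log2 fold change of 0.78 without overlap, and Npc1, the membrane transporter, from 16.6 ± 3.29 to 22.3 ± 3.07, a log2 fold change of 0.41 (adjusted p = 0.016) with 4 of 6 dKO libraries above all CTR libraries. Lipa, the acid lipase that frees this cholesterol from its esters, rose by 0.64, the ceramidase Asah1 by 0.56 and the thioesterase Ppt1 by 0.37. Asah1 varied little, at 100 ± 3.64 FPKM in CTR and 149 ± 5.35 in dKO.

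The proton pump subunits moved within a narrow band. All 6 were higher in dKO, against 20.4% of all genes tested, with log2 fold changes from 0.46 to 0.82 and a median of 0.61. In 4 of them every dKO library lay above every CTR library, against 11.3% of all genes tested. Atp6v0d2, an isoform of the membrane sector known from osteoclasts and macrophages, had the largest rise, from 45.2 ± 7.24 to 80.8 ± 13.5 FPKM, a log2 fold change of 0.82 ± 0.13 (adjusted p = 0.000176). Its ubiquitous counterpart Atp6v0d1 had the smallest, from 68.0 ± 9.90 to 93.1 ± 8.94, a log2 fold change of 0.46 ± 0.099 (adjusted p = 0.002). In the catalytic sector, Atp6v1b2 rose by 0.76, Atp6v1a by 0.52 and Atp6v1h by 0.49. The accessory subunit Atp6ap1 rose by 0.70 ± 0.059, from 76.2 ± 5.10 to 125 ± 5.49 FPKM. The difference between the rises of Atp6v0d2 and Atp6v0d1 was not tested.

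Both other membrane proteins, Cln3 and the calcium channel Mcoln1, did not pass the test. Cln3 was 3.49 ± 0.718 FPKM in CTR and 4.21 ± 0.744 in dKO, with a 95% interval of −0.04 to 0.48 for the log2 fold change, and Mcoln1 was 6.99 ± 0.694 and 7.70 ± 0.565, with an interval of −0.03 to 0.28. Exons of Cln3 overlap those of Apobr on the opposite strand. The same holds for Ppt1 and Cap1, Atp6v1a and Naa50, Neu1 and 1110038B12Rik, Idua and Dgkq, Sgsh and Slc26a11, and Gla and its neighbours Hnrnph2 and Rpl36a, and Glb1 overlaps Tmppe on the same strand. Longer overlaps on the opposite strand involve partners with fewer fragments. They cover 11.9% of the exon bases of Gusb (with Vkorc1l1), 15.4% of Ctsb (with Fdft1), 24.3% of Ctsa (with Pltp), 29.2% of Ctsz (with Nelfcd), 32.8% of Grn (with Fam171a2) and 49.2% of Lamp1 (with Grtp1). Others cover 25.9% of Arsa (with C230037L18Rik), 20.4% of Sgsh (with Card14) and 12.6% of Ctsa (with Neurl2). Since the strand setting of the counting is not given, the values of all these genes are uncertain to the extent of the overlap.

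**Figure D4:**
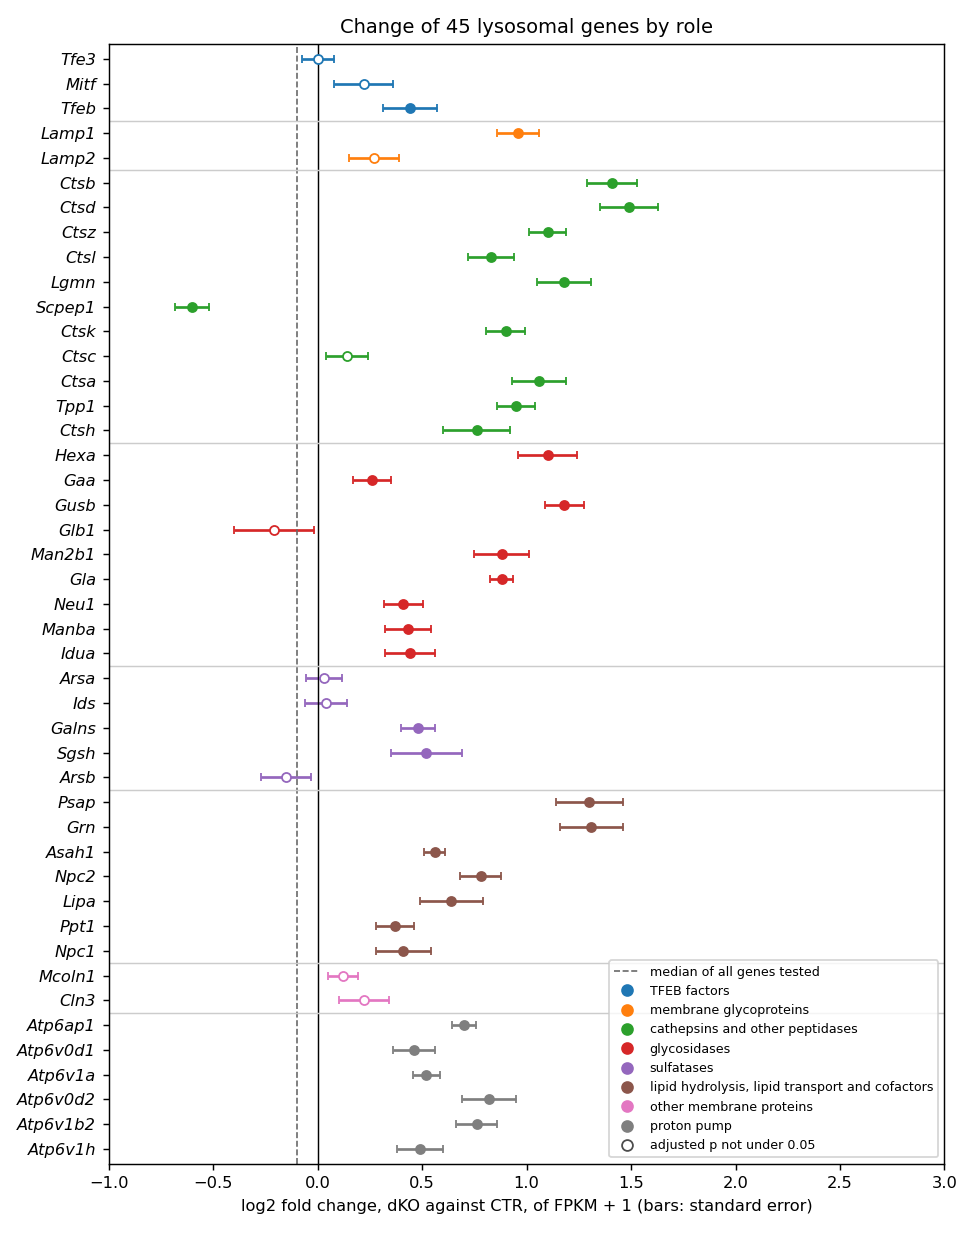
Log2 fold change of FPKM + 1 in dKO against CTR for the 45 lysosomal genes by role, with bars for the standard error, open circles for genes whose adjusted p is not under 0.05 and a dashed line at the median of all genes tested (−0.10). The peptidases reach 1.49 (Ctsd) and −0.60 (Scpep1), all lipid and proton pump genes lie to the right of 0, and the sulfatases lie between −0.15 and 0.52.

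Genes with a high level in CTR tended to have the larger rises. Over the 45 genes, Spearman's rho between the mean FPKM in CTR and the log2 fold change was 0.61, or 0.55 with the fold changes of limma-voom, where no pseudocount of 1 FPKM is added. Over all 12467 genes tested it was −0.07, or −0.04 with limma-voom. Genes share the same 12 libraries and are not independent replicates, so these values are descriptions. Of the 20 lysosomal genes with at least 50 FPKM in CTR, 17 were higher in dKO, with a median log2 fold change of 0.87. Of the 25 below 50 FPKM, 17 were higher, with a median of 0.44, or 0.51 with limma-voom. Among all genes tested, 20.4% were higher.

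**Figure D5:**
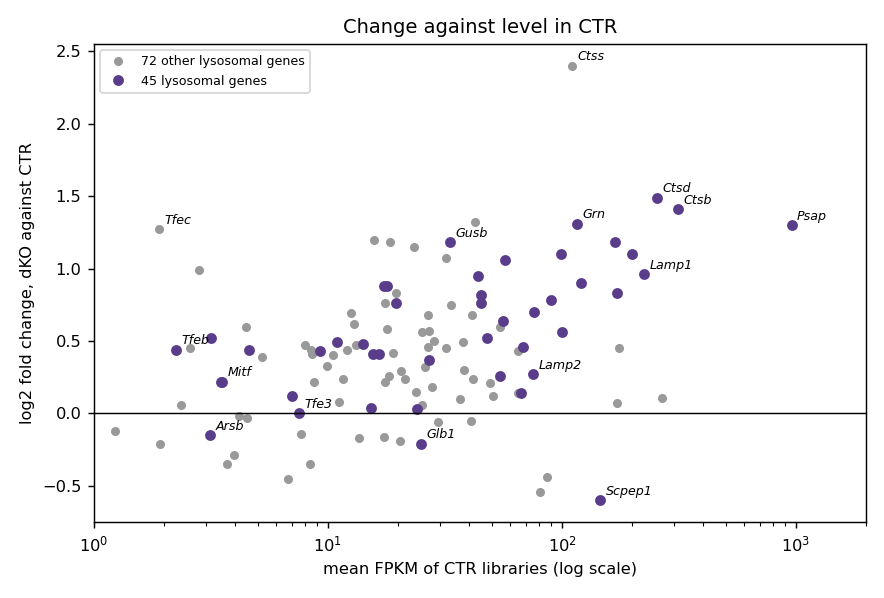
Log2 fold change in dKO against CTR of the 45 lysosomal genes (purple) and of 72 other lysosomal genes (grey) against the mean FPKM of the CTR libraries on a log scale. Ctsd, Ctsb, Grn and Psap stand at the upper right at 1.30 to 1.49, Scpep1 at −0.60 is the lowest purple point, and Ctss at 2.40 is the highest grey point.

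A further list of 72 lysosomal genes outside the module was read in the same way. Of these, 43 were higher in dKO, 6 were lower and 23 did not pass the test, with a median log2 fold change of 0.33. Of all genes tested, 20.4% were higher and 32.6% lower, and the counts below are to be read beside these shares. Among other hydrolases 14 of 20 were higher and 1 was lower, and among other subunits and partners of the proton pump 8 of 12 were higher and none was lower. Genes for sorting enzymes to the lysosome were higher in 5 of 7 cases, and other membrane proteins in 9 of 17, with 2 lower. A group made up of genes of the mTOR pathway that controls TFEB, together with Tfec and Zkscan3, was mixed, with 7 higher, 3 lower and 6 that did not pass among 16.

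Ctss, Tfec and Acp5 were among the largest rises on this list. Ctss, a cathepsin of antigen-presenting cells, was 110 ± 23.8 FPKM in CTR and 600 ± 220 in dKO, a log2 fold change of 2.40 (adjusted p = 2.42e-06). Acp5, an acid phosphatase of osteoclasts and macrophages, rose by 1.20, from 15.7 ± 1.84 to 37.9 ± 8.56 FPKM. Tfec, the remaining relative of TFEB and one known from macrophages, ranged from 1.39 to 2.35 FPKM in CTR (median 1.87) and from 4.72 to 8.50 in dKO (median 5.61). It was the only factor of this family without overlap between groups, with a log2 fold change of 1.27 ± 0.12 (adjusted p = 5.51e-06).

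Rraga, Zkscan3 and Mlst8 were among the largest falls. Rraga, a GTPase that brings the mTOR complex to the lysosome, fell by 0.44 on the log2 scale, from 86.1 ± 12.7 to 62.7 ± 2.9 FPKM (adjusted p = 0.00107). Zkscan3, described as a repressor of lysosomal and autophagy genes, fell by 0.35, from 8.40 ± 0.695 to 6.37 ± 0.275 FPKM (adjusted p = 0.000442), and the mTOR partner Mlst8 fell by 0.35 as well (adjusted p = 0.0142). Rraga and Zkscan3 were lower in every dKO library than in every CTR library, which also held for 16.1% of all genes tested. Mlst8 overlapped, with 4 of 6 dKO libraries below all CTR libraries. Falls were common, since 32.6% of all genes tested were lower in dKO.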

How the data were processed

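RNA of 12 MLEC libraries, 6 CTR and 6 dKO, was sequenced. By the study's methods, the authors used FastQC, Trimmomatic, STAR with mm39 and sambamba for uniquely aligned reads, which they aligned again. The submitters' processing notes name Bowtie2 2.2.3, HISAT2 2.1.0, TopHat2 and DESeq2 without a role. The counting program, annotation and strand setting are not given in the sources used here. The authors deposited FPKM values, with 28689 genes in 1 table. The label text on extraction speaks of retinas, while the samples are labelled as lung endothelial cells.

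FPKM values are not counts, so limma 3.58.1 (lmFit, eBayes with trend; R 4.3.3) was run on log2(FPKM + 1) over the 12467 genes that reached 1 FPKM in 6 or more libraries, with Benjamini-Hochberg adjustment over all of them. For single genes an exact two-sided permutation test over all splits into 6 and 6 was added. A fold change on this scale understates the change of low genes. Whole fragments were recovered from the FPKM by a search for library totals and for gene lengths of 20 to 150000 bases. All genes (100%) came out whole within 0.01, and the fragments served for depth (15523054 to 17938286 per library) and for limma-voom, which called 6609 genes. Intervals at 95% use the moderated standard error. No pair of libraries within a group agreed within sampling noise. Motifs were searched on both strands of RefSeq promoters, 250 bases before to 50 after the start. Copies were sought with BLAST 2.17.0. The limma step was tested on simulated data.

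The genes and lists were chosen with earlier results of these data known. All 45 genes were counted. Given with full values are Tfeb, Tfe3, Mitf, Lamp1, Lamp2, and the called genes with the 8 largest rises and up to 8 largest falls. Of the other lysosomal genes these are the 4 largest rises and falls, except for genes that are not reported here. Marco was named because it is the only exception in its list. Alternatives were the pseudocounts 0.1 and 0.01, no filter, a minimum of 5 FPKM, TPM, median-of-ratios and quantile scaling, limma-voom, the exact test per gene, a block for the replicate number, and the omission of each library in turn.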

Additional observations from a re-analysis of the deposited data

Results flagged for a closer look

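Among 110 groups of 6 values of the lysosomal genes and the genes named with them, 2 held a library far from the others by Dixon's criterion, while about 5.5 are expected at 1 in 20. Ctsc was 56.3 FPKM in CTR replicate 6, and 66.4 to 70.9 FPKM in the other CTR libraries. Ctss was 1013 FPKM in dKO replicate 3, and 390 to 617 FPKM in the other dKO libraries. This library also had the highest dKO value of 28 of the 45 lysosomal genes and of 9 of 10 macrophage markers. Without any of the 12 libraries in turn, the log2 fold change of Ctss was 2.23 to 2.51 and that of Ctsc 0.09 to 0.22.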

How the results depend on the processing

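Of the 35 lysosomal genes that passed the test, 34 kept their call in every alternative in which they were tested, and Gaa lost it in 9 of 22. With a minimum of 5 FPKM only 40 of the 45 genes were tested, and Tfeb and Sgsh, both called, and Mitf, Arsb and Cln3, not called, were left out. The number called was 33 to 37 when all libraries were kept and 34 to 38 without 1 library. The number higher was 32 to 36 and 33 to 37, and 1 gene was lower throughout. Over all 985 pairs of a gene and an alternative, 9 lost the call, 10 gained it and 14 reversed sign, and the genes that reversed were Tfe3, Ids and Arsa, whose changes were near 0. With TPM their log2 fold changes were −0.04, −0.01 and −0.02, and without 1 library they ranged from −0.04 to 0.04, from 0.00 to 0.12 and from −0.01 to 0.08. The number of genes past a log2 fold change of 1.5 went from 0 to 2 with median-of-ratios scaling and was 0 to 1 without 1 library, with 1 gene without CTR replicate 4, CTR replicate 5, dKO replicate 1 or dKO replicate 5. The cause was not tested. Of the 10 genes that did not pass, Glb1 and Arsb stayed so in each alternative in which they were tested. Sp3 passed with TPM and without CTR replicate 6. The longer motifs GGGGCGGGG and TCACGTGA were found in 11 and 7 promoters, where GGGCGG and CACGTG were found in 24 and 14. Same-numbered libraries did not pair in every case. The correlation of their deviations was 0.436 for replicate 1 and 0.565 for replicate 4, and lay between −0.108 and 0.156 for the others. Of the 6 CTR libraries, 2 were closest to their own number. With the replicate number as a block, 37 genes were called, 36 of them higher, among them Mitf (adjusted p = 0.0288) and Lamp2 (adjusted p = 0.0135). At 124 fragments in its lowest library, Tfeb is the gene whose level is limited most by depth.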
